A study of Bos taurus with 8 samples.

Results

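The genes described here are 10 genes of interleukin-1 (IL-1) signalling, epithelial alarm and the inflammasome in cattle rumen: the ligands IL1A, IL1B, IL18 and IL33, the antagonist IL1RN, the epithelial cytokine TSLP, and CASP1, PYCARD, NLRP3 and GSDMD of the inflammasome. They were taken by symbol from a table of 33132 genes, and all 10 were in it. The study sequenced RNA of rumen tissue, from the forestomach in which ruminants ferment their feed, in 4 adult steers (castrated males) and 4 newborn male calves, all angus crosses, with 1 library per animal. It asks which genes, pathways and transcription factors accompany rumen growth after birth. Steers differ from calves in age and castration together, and the labels give no diet and no batch. The genes were chosen by symbol, with the steer and calf levels of these same libraries already known, so their levels are given as a description and nothing is supported by a test on them.

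IL-1 alpha and IL-1 beta are inflammatory cytokines that signal through the receptor encoded by IL1R1, and the IL1RN product occupies that receptor without signalling. Inflammasomes are assemblies in which a sensor such as NLRP3 joins the adaptor ASC, encoded by PYCARD, and activates caspase-1, which cuts the precursors of IL-1 beta and IL-18 into their active forms and cuts gasdermin D, whose fragment opens pores in the cell membrane. IL-33 is held in nuclei of barrier and stromal cells and is released on damage, and TSLP is secreted by epithelia such as skin. In squamous epithelia, keratinocytes are themselves a source of IL-1 family cytokines. Most of this is known from human and mouse.

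Library totals were 42322022 to 54449684 counts, and levels are given in CPM, the usual counts scaled to a common library size. At these depths 3 counts correspond to 0.0502 to 0.0835 CPM. Log2 CPM correlated across genes at 0.907 to 0.962 between steers, 0.941 to 0.966 between calves and 0.846 to 0.891 between the groups. The basal keratinocyte markers KRT5 and KRT15 were abundant in both groups, at 3491 ± 604 and 4670 ± 2157 CPM in steers and 3161 ± 213 and 8653 ± 2323 CPM in calves (SD, n = 4 per group). Of the 7 basal markers KRT14 was called higher (2587 ± 516 CPM in steers and 803 ± 502 CPM in calves) and COL17A1 lower (357 ± 75 CPM in steers and 1237 ± 271 CPM in calves; SD, n = 4 per group), and their summed CPM overlapped, at 8142 to 15715 in steers and 11517 to 16967 in calves. Smooth muscle markers summed to 9500 to 101070 CPM in steers and 5277 to 16724 CPM in calves, with MYH11, CNN1 and DES higher and ACTA2 lower in steers, and the part of this tissue layer in the levels below was not tested. Of 16326 genes tested across the table, 2752 differed at an adjusted p under 0.05 in edgeR's quasi-likelihood test, which is 16.9% (7.70% higher and 9.16% lower in steers).

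Of the 10 genes, 9 passed the filter on low counts, NLRP3 being too low to test. In the fit over all genes CASP1 was lower and IL1A and TSLP were higher in steers past the threshold, and the other 6 were not called. Steers and calves had no overlap in CPM for CASP1 and IL1A, as was so for 23.3% of all tested genes. Since the steer and calf levels were known when the genes were chosen, neither count is read as more than a description. The IL1A and TSLP calls are fragile, as given beside their values. In whole tissue, fewer cells of a type and less RNA per cell cannot be told apart, and this holds for every level below.

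**Figure D1:**
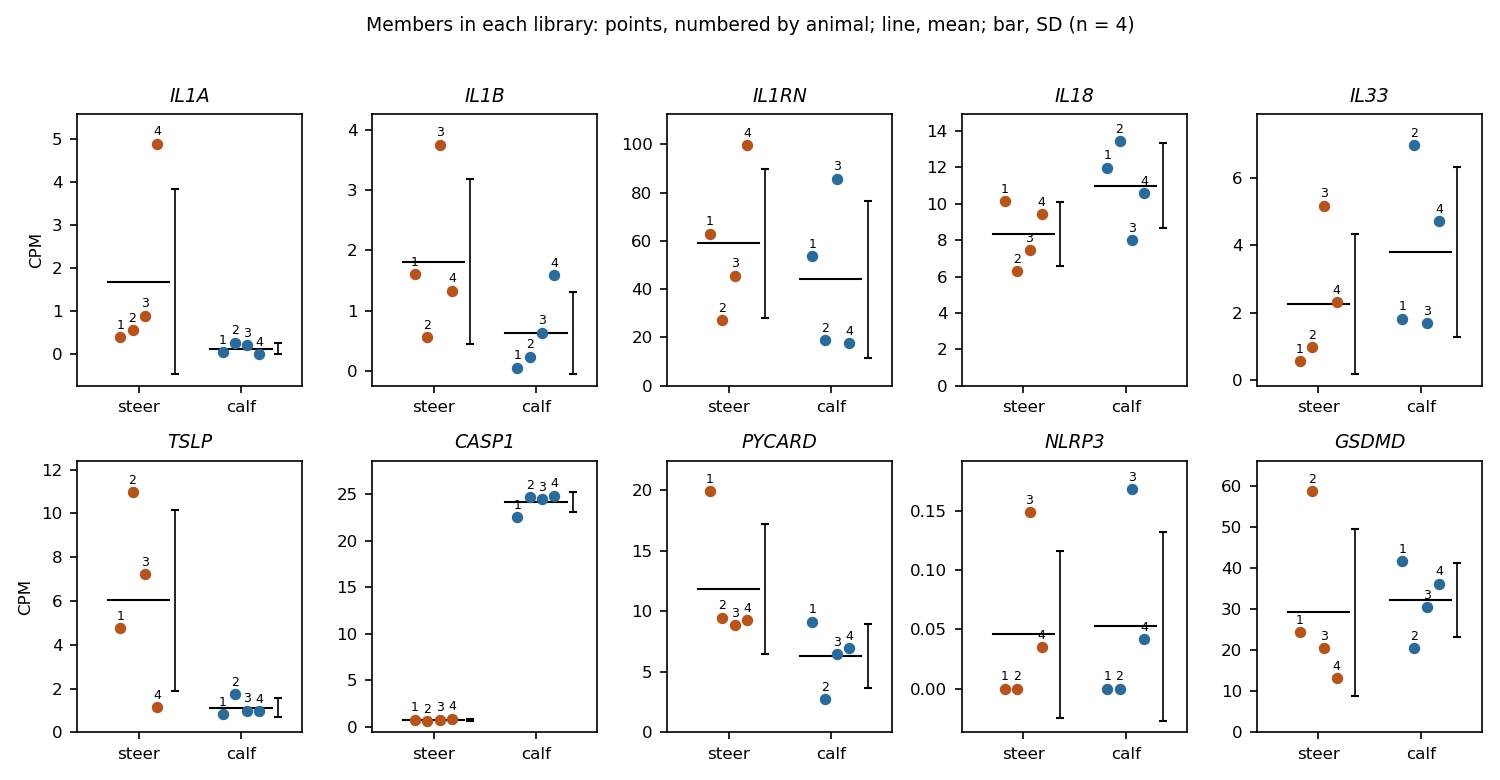
CPM of each of the 10 genes (vertical axis, linear) in the 4 steer and the 4 calf libraries, with points numbered by animal, a line at the mean and a bar of 1 SD. The CASP1 points of the groups lie far apart, at 0.612 to 0.877 CPM in steers and 22.5 to 24.8 CPM in calves, and those of IL1A lie apart too, whereas those of the other 8 genes overlap.

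CASP1, the protease at the centre of the inflammasome, was far lower in steers. It had 0.750, 0.612, 0.745 and 0.877 CPM in steers 1 to 4 (22 to 50 counts per library), against 22.5, 24.7, 24.5 and 24.8 CPM in calves 1 to 4 (966 to 1477 counts). Every steer lay far below every calf, and within each group the libraries were close together. The means were 0.746 ± 0.108 CPM in steers and 24.1 ± 1.1 CPM in calves (SD, n = 4 per group), 32.4-fold lower in steers, and the fitted log2 change was -5.01 ± 0.23 (SE). This was the 149th lowest log2 change of the 16326 tested genes, and the 68th lowest of the 8805 with at least 10 CPM in calves. The limit of 10 CPM was set on the group in which CASP1 is high. Both ranks restate a change that was known when CASP1 was chosen. The change lay between -5.11 and -4.91 in all 14 alternative fits.

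The spread of CASP1 between the libraries of a group was small. It comes from the same levels that were known when the gene was chosen, and is a description only. Its coefficient of variation (SD as a percentage of the mean) was 14.5% in steers and 4.56% in calves. The steer value rests on 22 to 50 counts per library, with both mates of a pair counted. Counting error is part of both values, so they do not measure differences between animals alone, and its share was not tested. Tested genes with a group mean within 2-fold of that of CASP1 had a median of 50.8% in steers (2216 genes) and 20.7% in calves (4735 genes). Only 2.84% of these genes in steers and 1.80% in calves varied less than CASP1. IL18 varied about as much as other genes of its level (21.3% against a median of 31.1% in steers, and 21.1% against 23.1% in calves). IL1RN was more variable than 89.5% of genes of its level in steers and 98.8% in calves. IL33 exceeded 95.4% of such genes in steers and 91.6% in calves.

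CASP1 lies on chromosome 15 from 3232948 to 3248827 on the plus strand. Positions are those of the count table, and no source used here names its genome build. The span shared no base with another gene. Its neighbour CASP4, an inflammatory caspase that in human senses bacterial lipopolysaccharide, begins 1205 bases further on. CASP4 had 2.30, 1.84, 2.53 and 4.31 CPM in steers 1 to 4, against 9.43, 20.6, 12.4 and 27.7 CPM in calves 1 to 4. All steers were below all calves here too, and CASP4 fell by 2.67 ± 0.41 on the log2 scale (SE, adjusted p = 0.00266, edgeR). Calves 2 and 4 had the most CASP4, while CASP1 was nearly level over the calves.

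The suprabasal, neutrophil and fibroblast marker lists had lower summed levels in all steers than in all calves, as CASP1 did. Of the suprabasal squamous markers, 6 of 7 were in the table and 5 were tested. KRT4, KRT13 and CRNN of these fell, the summed CPM of the list was 292 to 1796 in steers and 35642 to 87869 in calves, and IVL was at 0 because its whole span is shared with another gene. Of the neutrophil markers 5 of 6 were in the table and 4 were tested, and the interleukin-8 receptor CXCR2 and myeloperoxidase MPO fell. CXCR2 had 0.39 ± 0.157 CPM in steers and 15.1 ± 3.7 CPM in calves (SD, n = 4 per group). The summed neutrophil level was 1.17 to 2.42 CPM in steers and 13.2 to 31.5 CPM in calves, with ELANE near 0 in both groups (0.0186 and 0.175 CPM). MMP9 of this list went the other way without a call, at 0.951 ± 0.452 CPM in steers and 0.0946 ± 0.163 CPM in calves (SD, n = 4 per group). Of 5 fibroblast markers COL1A1, COL1A2 and DCN fell, and the summed level was 251 to 491 CPM in steers and 1154 to 3297 CPM in calves. Of 4 endothelial markers PECAM1 fell, and the summed level overlapped, at 112 to 216 CPM in steers and 168 to 321 CPM in calves. The macrophage and monocyte list did not move as CASP1 did. Of 8 tested macrophage and monocyte markers CSF1R rose and CD14 fell, and the summed level was 25.0 to 82.5 CPM in steers and 56.3 to 104 CPM in calves, with a median log2 change of 0.31. The part of these cell types in the CASP1 level was not tested. Per 1000 macrophage and monocyte marker counts CASP1 had 10.6 to 25.4 counts in steers and 237 to 439 in calves. Per 1000 basal keratinocyte marker counts it had 0.0476 to 0.108 in steers and 1.37 to 2.15 in calves. Both ratios rest on the CASP1 counts that were known when it was chosen, and on lists with called members in both directions.

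PYCARD, the adaptor that carries caspase-1 to the sensor, had a higher mean in steers. It had 19.9, 9.47, 8.87 and 9.26 CPM in steers 1 to 4, against 9.13, 2.74, 6.44 and 6.94 CPM in calves 1 to 4. Calf 1 lay above steer 3, so that the groups overlapped, and steer 1 stood above all others. PYCARD was not called, at a log2 change of 0.91 ± 0.40 (SE). The mean ± SD was 11.9 ± 5.4 CPM in steers and 6.31 ± 2.65 CPM in calves (n = 4 per group). Per 1000 basal keratinocyte marker counts PYCARD had 0.735 to 1.27 in steers and 0.238 to 0.556 in calves. Per 1000 macrophage and monocyte marker counts it had 112 to 419 in steers and 48.7 to 110 in calves. The groups did not overlap on these scales, though on the macrophage and monocyte scale only narrowly. Both lists have called members in both directions, and the share of all genes that separate on such scales was not computed. The ratios are thus a description only.

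NLRP3, the sensor that responds to cell damage and ion loss, was barely detected. It had 0, 0, 8 and 2 counts in steers 1 to 4 and 0, 0, 8 and 2 counts in calves 1 to 4. With 10 counts in each group, no difference was detectable at this depth. Each read pair could add 2 to a count, so these stand for few molecules.

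GSDMD, the pore-forming substrate of caspase-1, had levels that overlapped between the groups. It had 24.5, 58.7, 20.5 and 13.2 CPM in steers 1 to 4, against 41.7, 20.5, 30.5 and 36.2 CPM in calves 1 to 4. Steer 2 held the highest and steer 4 the lowest level of all 8 animals, so the calf values lay inside the steer range. Its log2 change of -0.14 ± 0.43 (SE) turned to 0.02 without calf 1 and 0.10 without steer 4.

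Ratios of counts within a library need no scaling between libraries. PYCARD over CASP1 was 10.6 to 26.5 in steers and 0.111 to 0.406 in calves. GSDMD over CASP1 was 15.0 to 95.9 in steers and 0.830 to 1.85 in calves. IL18 over CASP1 was 9.98 to 13.5 in steers and 0.326 to 0.544 in calves. All 3 share CASP1 as the denominator, so their separation restates the gap in CASP1, while the CPM of each numerator overlapped. Since counts depend on gene length, such a ratio compares libraries and not the abundance of one gene with another.

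**Figure D2:**
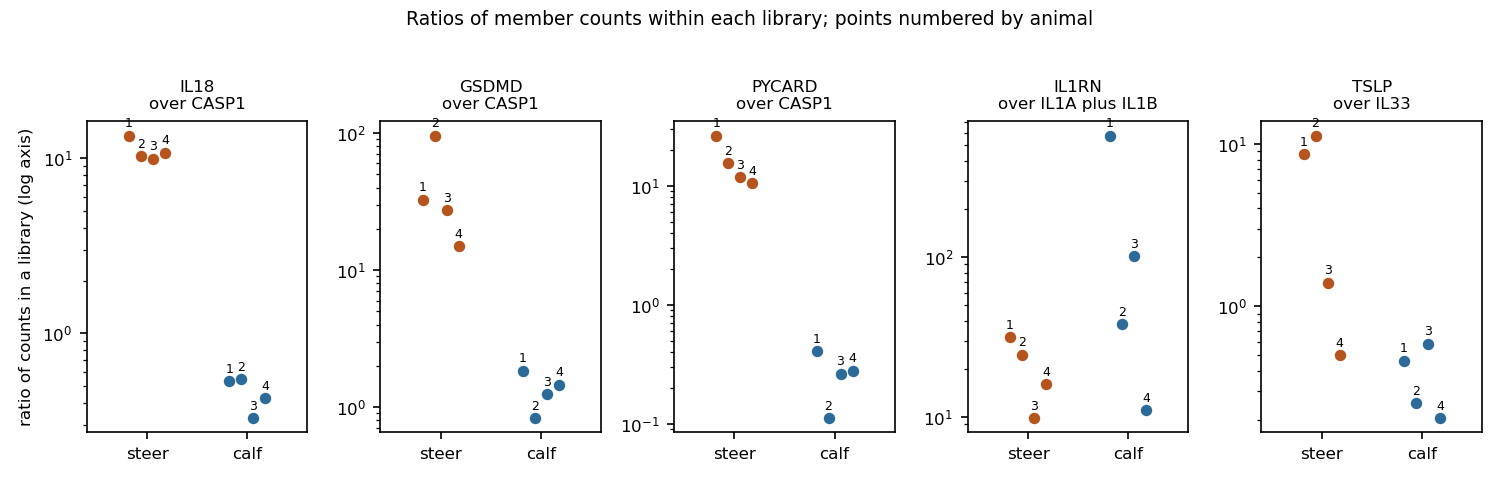
Ratios of raw counts within each library on log axes, 1 panel per ratio, with points numbered by animal. The 3 ratios over CASP1 are higher in all steers than in all calves and share that denominator, while IL1RN over IL1A plus IL1B (9.81 to 31.5 in steers and 11.1 to 577 in calves) and TSLP over IL33 (0.500 to 11.3 in steers and 0.204 to 0.588 in calves) overlap.

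A wider list of inflammasome and pyroptosis genes was compared in the same way. Of its 28 genes 27 were in the table and 21 were tested, of which 2 rose and 3 fell. That is 23.8% called, against 16.9% of all tested genes, and the median log2 change was 0.27, against 0.04 over all tested genes. NLRP1, a sensor that in human keratinocytes answers ultraviolet light and viral protease, had 3.40, 3.56, 1.45 and 2.74 CPM in steers 1 to 4 and 0.419, 0.301, 0.968 and 0.502 CPM in calves 1 to 4. It rose by 2.34 ± 0.48 (SE, adjusted p = 0.00985, edgeR), with all steers above all calves.

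Besides CASP4, the gasdermin GSDMA and the serpin SERPINB1 fell. GSDMA, a skin gasdermin, had 0.05, 0.111, 0.298 and 1.19 CPM in steers 1 to 4, against 5.12, 1.74, 16.3 and 2.55 CPM in calves 1 to 4. Its log2 change was -3.91 ± 1.02 (SE, adjusted p = 0.0272, edgeR), and without calf 3, which held most of it, the change was -2.88 and the call ended, as it did without calf 1 or steer 1, 2 or 3. SERPINB1, an inhibitor of neutrophil proteases, fell by 1.11 ± 0.30 (SE, adjusted p = 0.0298, edgeR), and was not called when calf 1, 3 or 4 or steer 3 or 4 was left out. The redox protein TXNIP, the most abundant gene of the list, averaged 506 ± 234 CPM in steers and 435 ± 111 CPM in calves (adjusted p = 0.727, edgeR). The genes with no call lay between -1.10 and 0.91 on the log2 scale. GSDMC, NLRP6 and the ATP-gated channel P2RX7 could not be measured, since their whole counted spans lie in other genes.

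IL18, a cytokine that epithelial cells store as a precursor, was steady over the 8 animals. It had 10.1, 6.29, 7.43 and 9.43 CPM in steers 1 to 4, against 12, 13.5, 8.0 and 10.6 CPM in calves 1 to 4. Calf 3 lay within the steer range, and 3 calves lay above every steer. The log2 change was -0.40 ± 0.25 (SE), without a call in any of the 14 alternative fits. Of its receptor, IL18R1 was too low to test, at 0.312 ± 0.155 CPM in steers and 0.126 ± 0.151 CPM in calves (SD, n = 4 per group). The other chain, IL18RAP, was tested and not called, at 0.279 ± 0.206 CPM in steers and 0.0829 ± 0.0858 CPM in calves (SD, n = 4 per group). The secreted inhibitor IL18BP lies wholly inside the span of RNF121 and could not be measured.

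The agonists IL1A and IL1B were rare in the tissue. IL1A, which is active without cutting by caspase-1, had 0.400, 0.557, 0.894 and 4.89 CPM in steers 1 to 4 (16 to 279 counts), against 0.0466, 0.268, 0.210 and 0 CPM in calves 1 to 4 (at most 16 counts). All steers lay above all calves, but steer 4 held 279 of the 363 steer counts. The log2 change was 3.63 ± 1.10 (SE) and was 2.19 without steer 4. The call held in 5 of 14 alternative fits and ended when any 1 calf, steer 3 or steer 4 was left out.

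IL1B had 1.6, 0.557, 3.76 and 1.33 CPM in steers 1 to 4, against 0.0466, 0.234, 0.631 and 1.59 CPM in calves 1 to 4. Calf 4 lay above steers 2 and 4, so the groups overlapped. IL1B was not called, at a log2 change of 1.54 ± 0.89 (SE). Calf 4 had the most IL1B of the calves and no count of IL1A, and steer 3 led the steers in IL1B where steer 4 led in IL1A.

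IL1RN, the receptor antagonist, gave far more counts than the agonists in every library. It had 63.1, 27.3, 45.7 and 99.8 CPM in steers 1 to 4, against 53.8, 19.0, 85.8 and 17.6 CPM in calves 1 to 4. The calves split into a high pair (calves 1 and 3) and a low pair (calves 2 and 4), and the steers filled the same range. The log2 change was 0.42 ± 0.55 (SE) and turned to -0.21 without calf 2 and steer 4. Of the counted span, 66.6% is shared with LOC112448782, a non-coding gene on the other strand. Reads in the shared part were dropped, which leaves 7176 bases, and the level of IL1RN is to that extent a part of the whole. IL1RN counts over IL1A plus IL1B counts had a median of 20.3 in steers and 69.9 in calves, with ranges that overlapped.

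IL1A, IL1B and IL1RN stand in a cluster of 9 IL-1 family genes on chromosome 11, from 46482553 to 46837407 in the count table's coordinates, with the IL-36 genes between them. IL-36 cytokines are epithelial relatives of IL-1, and IL36RN encodes their receptor antagonist. None of the 4 tested IL-36 genes was called by edgeR, against 16.9% of all tested genes, and 0 passed an unadjusted p of 0.05 or were called by DESeq2. Their median log2 change was 1.51, and IL36G was called higher (log2 change 3.78) when calf 3 was left out. The other 2 ligands of the list were not tested, as IL37 had no count in any library and IL1F10 at most 6. All 6 are named here for their place in the cluster. The most abundant of the IL-36 genes, IL36A, had 119, 56.0, 89.0 and 398 CPM in steers 1 to 4, against 27.9, 0.435, 128 and 0.795 CPM in calves 1 to 4. Calf 3 lay above 3 of the steers and calves 2 and 4 were near 0, and the log2 change was 2.08 ± 1.40 (SE, adjusted p = 0.348, edgeR).

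The libraries kept much the same order from IL36G to IL1RN. Steer 4 was the highest steer and calf 3 the highest calf for IL36G, IL36A, IL36B, IL36RN and IL1RN, and calves 2 and 4 were the lowest calves for all 5. IL36RN had 42.8, 10.2, 15.7 and 109 CPM in steers 1 to 4 and 18.6, 5.50, 67.4 and 1.57 CPM in calves 1 to 4. Its highest level was thus in steer 4 and its lowest in calf 4, as for IL1RN. IL36G had 3.79 to 27.2 CPM in steers and 0.125 to 6.44 CPM in calves. IL36B had 0.501 to 3.44 CPM in steers and 0.0669 to 12.8 CPM in calves, the reverse order of group means. IL1A and IL1B did not share this order among the calves, since calf 2 was highest for IL1A and calf 4 for IL1B. It was also seen outside the cluster. The suprabasal markers TGM3 and MAL, which lie far from it, were likewise highest in steer 4 and calf 3 and, among calves, lowest in calves 2 and 4. TGM3 had 373, 56.5, 128 and 625 CPM in steers 1 to 4 and 753, 26.9, 1760 and 278 CPM in calves 1 to 4. The other tested suprabasal markers shared this order only in part. KRT13 was highest among steers in steer 4, and KRT4 and KRT13 were lowest among calves in calves 2 and 4. Among calves, however, KRT4 and KRT13 were highest in calf 1 and CRNN in calf 2, and KRT4 had no count in steer 4. The part of the suprabasal layer in the IL-36 and IL1RN levels was not tested. This shared order was noticed in the data and carries no test.

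**Figure D3:**
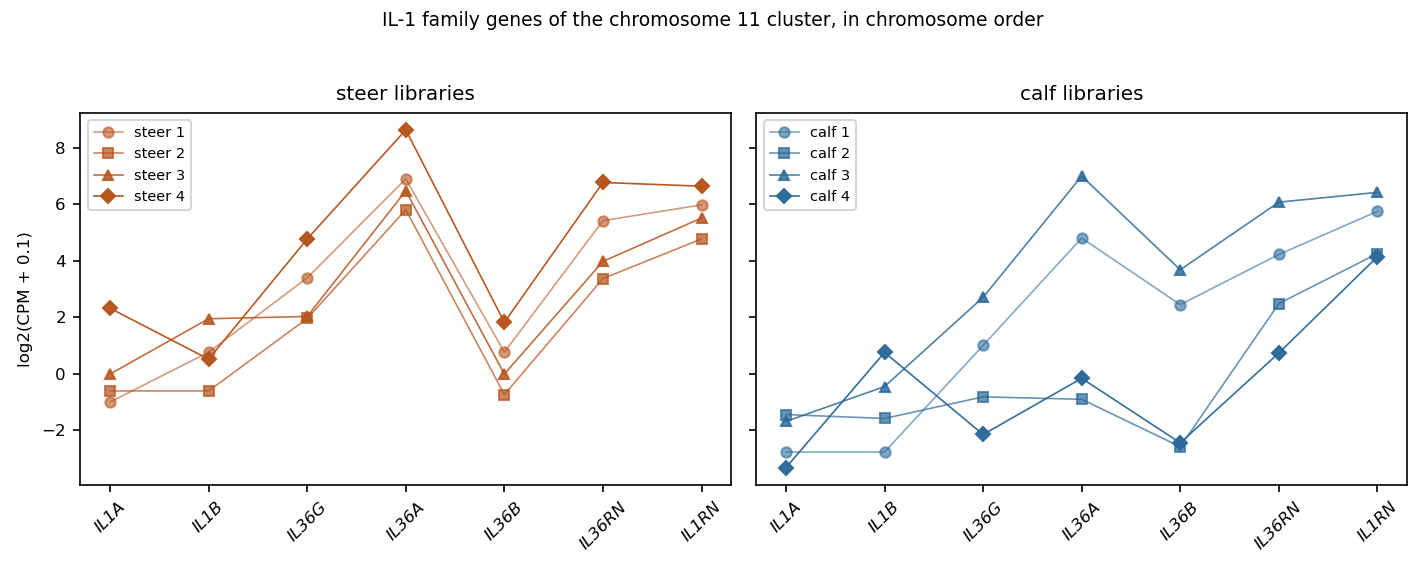
Level of 7 IL-1 family genes of the chromosome 11 cluster, in chromosome order, as log2(CPM + 0.1), with 1 line per library (steers left, calves right). From IL36G to IL1RN the lines of steer 4 and calf 3 run on top of their groups and those of calves 2 and 4 lie lowest among calves; heights of different genes are not comparable, since CPM is not corrected for length.

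On the receptor side, the decoy IL1R2, the T cell and TSLP receptor chain IL7R and the kinase IRAK2 rose. The list of IL-1 family receptors and first signalling steps also holds the TSLP receptor chains IL7R and CRLF2. In this list, 22 of 23 genes were in the table and 19 were tested. Of these 3 rose and none fell with edgeR (2 were lower at an unadjusted p under 0.05, and DESeq2 called 1 lower), 15.8% against 16.9% of all tested genes, with a median log2 change of 0.33. IL1R2, which binds IL-1 without signalling, had 452, 213, 331 and 405 CPM in steers 1 to 4, against 61.3, 13.8, 60.5 and 60.5 CPM in calves 1 to 4. Every steer lay above every calf, and IL1R2 rose by 2.84 ± 0.47 on the log2 scale (SE, adjusted p = 0.00371, edgeR). It had the highest CPM of the list in steers, while in calves TOLLIP, IRAK1 and SIGIRR were above it.

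The signalling receptor IL1R1 had 16.9, 12.3, 19.9 and 30.3 CPM in steers 1 to 4, against 33.6, 44.6, 39.3 and 25.4 CPM in calves 1 to 4. Steer 4 lay above calf 4, and the log2 change of -0.85 ± 0.29 missed the threshold (SE, adjusted p = 0.0775, edgeR). It passed without steer 4 (-1.12), without calf 2 and steer 4 together, and with DESeq2. IRAK2, a kinase of the receptor complex, averaged 25.9 ± 11 CPM in steers and 9.81 ± 1.5 CPM in calves (SD, n = 4 per group) and rose by 1.40 ± 0.31 (SE, adjusted p = 0.0144, edgeR). The other 15 genes with no call, MYD88, IRAK1, IRAK4 and TOLLIP among them, lay between -0.66 and 1.70 on the log2 scale.

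Genes that IL-1 and NF-kB, the transcription factor it activates, switch on moved in both directions. Of 32 such genes 23 were tested with edgeR, of which 2 rose and 3 fell (21.7% called, against 16.9% of all tested genes), with a median log2 change of 0.08. The mitochondrial superoxide dismutase SOD2 rose by 1.01 ± 0.23 (SE, adjusted p = 0.0151, edgeR), with 91.4 ± 17.8 CPM in steers and 45.4 ± 10.4 CPM in calves (SD, n = 4 per group). SOD2 was not called without calf 1 or with library size only. The NF-kB subunit REL rose by 1.40 ± 0.42 (SE, adjusted p = 0.0486, edgeR), a call that ended in 11 of 14 alternative fits. PTGES, a prostaglandin E synthase, had 2.10, 3.73, 2.53 and 1.96 CPM in steers 1 to 4 and 19.3, 8.52, 19.7 and 12.3 CPM in calves 1 to 4. All steers were below all calves, and PTGES fell by 2.53 ± 0.35 (SE, adjusted p = 0.00165, edgeR).

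The neutrophil attractant CXCL2 fell by 2.47 ± 0.65 (SE, adjusted p = 0.0282, edgeR), with 0.493 ± 0.339 CPM in steers and 2.79 ± 1.06 CPM in calves (SD, n = 4 per group). Leaving out calf 1, 3 or 4 or steer 1 or 3 ended this call. CXCL3 and CXCL5 had lower means in steers too, without a call. The chemokine CXCL8 went the other way, at 1.04 ± 1.07 CPM in steers and 0.0713 ± 0.0645 CPM in calves (SD, n = 4 per group). CXCL8 was too low to test in the main fit and was called higher without the filter (log2 change 3.84) and without steer 2. MMP1, also too low to test there and without a count in calves, was called higher without the filter too (7.04). ZC3H12A, a nuclease that degrades cytokine messages, fell by 1.44 ± 0.39 (SE, adjusted p = 0.0323, edgeR), which was not called when calf 1 or 3 or steer 1, 2 or 3 was left out. NFKB2, with the highest mean CPM of the list over all 8 animals though below RELA and ZC3H12A in calves, had 53.6 to 232 CPM in steers and 51.3 to 76.6 CPM in calves (adjusted p = 0.0723, edgeR). It passed without steer 4 and with DESeq2. The inhibitor NFKBIA could not be measured, since its span is wholly shared.

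**Figure D4:**
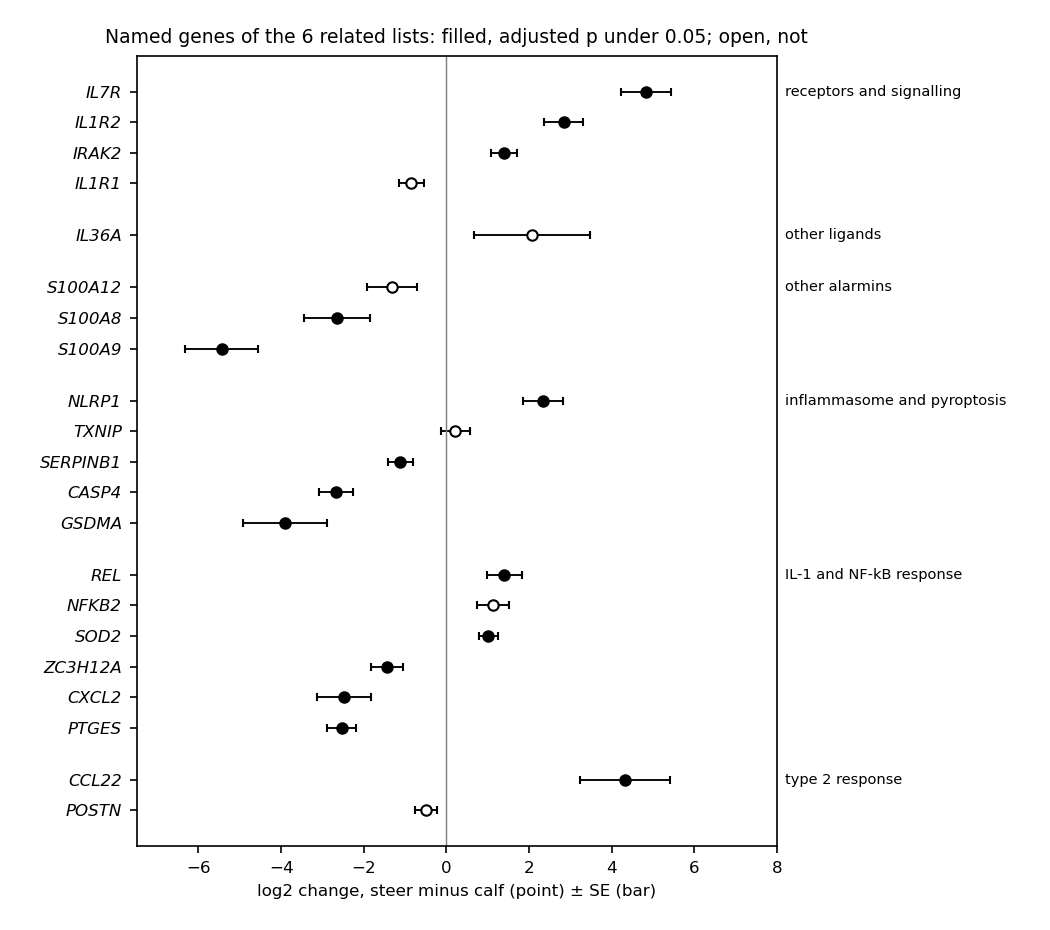
Log2 change, steer minus calf, with a bar of 1 SE for the tested genes of the 6 related lists that the text names by rule (filled points, adjusted p under 0.05; open points, not). IL7R, CCL22 and IL1R2 lie furthest to the steer side, S100A9 and GSDMA furthest to the calf side.

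TSLP, the epithelial cytokine that acts on dendritic and lymphoid cells, had a higher mean in steers. It had 4.75, 11, 7.23 and 1.16 CPM in steers 1 to 4, against 0.839, 1.76, 0.989 and 0.962 CPM in calves 1 to 4. Steers 1 to 3 lay above all calves, and steer 4 lay below calf 2. Its fitted log2 change was 2.40 ± 0.60 (SE). Leaving out calf 1, 3 or 4 or steer 2 or 3 ended the call, and the change was 1.95 to 3.04 over the 14 alternative fits. Per 1000 basal keratinocyte marker counts TSLP was 0.142 to 0.852 in steers and 0.0511 to 0.153 in calves. CRLF2, the specific chain of its receptor, was not analysed here.

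IL33, the nuclear alarmin, varied more between animals than between groups. It had 0.550, 0.974, 5.18 and 2.31 CPM in steers 1 to 4, against 1.82, 6.98, 1.68 and 4.73 CPM in calves 1 to 4. The groups overlapped widely, and calf 2 had the highest level of all. The log2 change was -0.75 ± 0.71 (SE), without a call in any of the 14 alternative fits. IL33 counts per 1000 endothelial marker counts were 3.88 to 30.1 in steers and 7.0 to 26.7 in calves, with medians of 9.72 in steers and 12.4 in calves. Per 1000 fibroblast marker counts the medians stood the other way, at 3.47 in steers (1.98 to 11.4) and 1.79 in calves (1.03 to 3.15), and the ranges overlapped too. Its receptor IL1RL1 was too low to test, at 0.0476 ± 0.0661 CPM in steers and 0.122 ± 0.134 CPM in calves (SD, n = 4 per group).

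Of 15 type 2 response genes downstream of IL-33 and TSLP, 8 were tested, 1 rose and none fell, also at an unadjusted p under 0.05 or with DESeq2 (12.5%, against 16.9% of all tested genes), with a median log2 change of 0.38. This was CCL22, a dendritic cell chemokine, with 5.95, 3.06, 3.09 and 5.58 CPM in steers 1 to 4 and 0, 0, 0.631 and 0.251 CPM in calves 1 to 4. CCL22 rose by 4.3 ± 1.1 on the log2 scale (SE, adjusted p = 0.0231, edgeR), and the call ended without calf 4. IL4, IL5 and IL9 were at or close to 0 counts in all libraries, and IL13 could not be measured. The matrix protein POSTN, the most abundant gene of the list, averaged 166 ± 38 CPM in steers and 236 ± 67 CPM in calves (adjusted p = 0.233, edgeR).

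IL7R, the receptor chain that TSLP shares with interleukin-7 and that T cells carry, had 4.95, 1.56, 2.38 and 2.95 CPM in steers 1 to 4, against 0.0932, 0.201, 0.0631 and 0.0418 CPM in calves 1 to 4. All steers lay above all calves, and IL7R rose by 4.82 ± 0.61 (SE, adjusted p = 0.00101, edgeR). Most tested T and NK cell markers rose too. Of 5 tested, CD3E, CD3G, CD2 and NKG7 rose. CD3D was level, at 5.71 ± 6.82 CPM in steers and 5.57 ± 4.54 CPM in calves (SD, n = 4 per group). The summed level of the 6 in the table overlapped, at 7.41 to 45.3 CPM in steers and 1.27 to 13.8 CPM in calves, with CD8A near 0. The Langerhans cell marker CD207 averaged 11.3 ± 4.8 CPM in steers and 0.327 ± 0.215 CPM in calves (SD, n = 4 per group). Of the same Langerhans and dendritic list CD74 was level, at 287 ± 78 CPM in steers and 283 ± 160 CPM in calves (SD, n = 4 per group). CD1A, FLT3, XCR1 and CLEC9A were too low to test. The summed level of the list overlapped, at 188 to 380 CPM in steers and 64.8 to 446 CPM in calves. The part of these cells in the IL7R and CCL22 levels was not tested.

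Other alarmins were lower in steers where they were called. All 6 listed genes were tested, of which 2 fell with edgeR (33.3%, against 16.9% of all tested genes), with a median log2 change of -1.21. At an unadjusted p under 0.05 in edgeR 3 were lower, with ANXA1 besides these, and DESeq2 called 2 lower. None rose by any of these measures. S100A9, a subunit of calprotectin found in neutrophils and squamous epithelium, had 137, 31.8, 42.7 and 56.1 CPM in steers 1 to 4, against 3667, 323, 5581 and 1974 CPM in calves 1 to 4. All steers lay below all calves, and S100A9 fell by 5.43 ± 0.89 (SE, adjusted p = 0.00353, edgeR). Its partner S100A8 changed by -2.65 ± 0.79 (SE, adjusted p = 0.0463, edgeR), but calf 2, at 147 CPM, lay below every steer, and the call ended when any library other than calf 2 was left out. S100A12, the most abundant of the list, averaged 4080 ± 2415 CPM in steers and 10181 ± 5813 CPM in calves (SD, n = 4 per group; adjusted p = 0.163, edgeR). The summed neutrophil and suprabasal marker levels given beside CASP1 were lower in steers as well, though MMP9 went the other way. Single markers differed in their order among calves. S100A9, S100A8, MPO, KRT4 and KRT13 were lowest in calf 2, whereas CXCR2 and CRNN were highest there. The part of these cells in the alarmin levels was not tested.

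The genes most alike in pattern were found for the 3 genes with the highest mean CPM, by Pearson correlation of log2 CPM over the 8 libraries among tested genes of at least 1 CPM. For IL1RN these were DBF4, a replication kinase regulator (0.984), the nuclease DNASE1L3 (0.969) and the uridine phosphorylase UPP1 (0.966), all with the highest steer level in steer 4 and the highest calf level in calf 3. For GSDMD they were SUGP1 (0.984), PLA2G6 (0.965) and TRIP6 (0.962), none of which was called. For CASP1 they were the pseudogene LOC615290 (0.997), CPXM1 (0.997) and ADAMTS18 (0.997). CPXM1 had 1.14 ± 0.14 CPM in steers and 24.7 ± 3.5 CPM in calves (SD, n = 4 per group), and LOC615290 and ADAMTS18 had no count in steers. For CASP1 the value mostly restates the gap between the groups, which many genes share, and all of these values rest on the same 8 libraries.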

How the data were processed

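Rumen RNA of 4 steers and 4 calves was measured by RNA-seq, 1 library per animal. Per the labels' protocols, libraries were made from total RNA with random hexamers and dUTP second strands and read from both ends. The submitters' processing notes name Trimmomatic 0.39, STAR 2.7.11a, featureCounts 2.0.2 and DESeq2 1.42.0. The deposited values are raw counts per gene name. Per the file headers, the authors counted over whole transcript spans with no strand option, so introns count, antisense genes cannot be told apart, and reads in more than 1 gene were dropped. Both mates of a pair were counted, so 86.9% to 89.0% of counts from 1 to 10 were even. Of the listed genes, 8 had a wholly shared span. Floors of 3 counts cover counting error only. Gene names and chromosome numbers come from the file and an ARS-UCD2.0 reference table.

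The steer against calf fit used edgeR 4.0.16 in R 4.3.3, with the filterByExpr filter by group, TMM scaling, a robust quasi-likelihood fit and its F test. P-values were Benjamini-Hochberg adjusted over 16326 genes, and a gene was called at an adjusted p under 0.05. Log2 changes are steer minus calf, and SE is the log2 change over the square root of F. CPM uses TMM-scaled sizes. The procedure was run on counts simulated from the model and dispersions of this fit, which cannot show whether that model holds for these data. Nothing in the labels marks replicate numbers as pairs, and p-values measure the spread between 4 animals per group. Alternatives were DESeq2 size factors, library size only, the DESeq2 1.42.0 test, no filter, a replicate block, each library left out, and calf 2 and steer 4 left out together.

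The 10 genes, the 6 related lists and the 11 marker lists were chosen with earlier results of these data known. Named from each related list were up to 4 called genes per direction with at least 1 CPM in the higher group, by size of change, the most abundant gene, and 6 receptors whatever their result. For the 3 most abundant of the 10 genes the 3 most alike genes were named. CRLF2, CARD8, SPRR3 and CSF3R of the lists were not analysed here, and 1 called gene of the inflammasome list is not reported here.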

Additional observations from a re-analysis of the deposited data

Results flagged for a closer look

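The 10 genes and the tested genes named by rule from the 6 related lists (32 genes, 64 groups of 4 animals) were screened for an animal that stands apart, meaning that its gap to the nearest other animal, divided by the range of its group, exceeds Dixon's critical value of 0.829. For independent groups of normally distributed values chance would give about 1 in 20, and 5 of 64 passed. CPM need not be normally distributed and the groups share the same animals, so that rate is only a guide. IL1A was at 4.89 CPM in steer 4, against 0.400 to 0.894 CPM in the other steers. PYCARD was at 19.9 CPM in steer 1, against 8.87 to 9.47 CPM in the other steers. TSLP was at 1.76 CPM in calf 2, against 0.839 to 0.989 CPM in the other calves. CASP1 was at 22.5 CPM in calf 1, against 24.5 to 24.8 CPM in the other calves, a gap that is small beside the level. IL1R2 was at 13.8 CPM in calf 2, against 60.5 to 61.3 CPM in the other calves, which lay close together.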

How the results depend on the processing

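CASP1 was called lower in all 14 alternative fits, and IL1RN, IL18, IL33, IL1B, PYCARD and GSDMD were called in none. Scaling by library size without TMM shifted the median log2 change over all genes by -0.11 and called 835 genes higher and 1555 lower. The share of calls that were higher was then 34.9%, and 45.7% with TMM. DESeq2 called 1944 higher and 2136 lower. Leaving out 1 library gave 705 to 1473 higher genes (705 without calf 1 and 804 without calf 4) and 1029 to 1784 lower genes. Of the 10 genes it left 0 higher without calf 1, 3 or 4 or steer 3, 1 without calf 2 or steer 2 or 4, and 2 without steer 1, with 1 lower in each. Without TMM, and without calf 2 and steer 4, 1 of the 10 genes was called higher, instead of 2. For the 6 related lists together, 8 rose and 8 fell, with 7 to 12 and 3 to 9 when 1 library was left out (3 fell without calf 1, calf 3 or steer 3, 4 without steer 1 and 5 without calf 4) and 8 and 12 without calf 2 and steer 4. By list and with 1 library left out, 1 to 2 alarmins fell, 1 to 3 inflammasome genes fell (1 without calf 1, calf 3 or steer 3), and 1 to 4 NF-kB response genes rose (1 without calf 1, steer 1 or steer 3, 4 without steer 2) and 1 to 4 fell (1 without calf 1, calf 3, steer 1 or steer 3). Of the NF-kB response genes 0 rose with library size only, 4 rose and 5 fell with DESeq2, and 5 fell without calf 2 and steer 4. Among type 2 genes 0 rose without calf 4 and 2 without steer 2, and 1 receptor gene, IL1R1, fell without steer 4. Signs turned for IL1RN (-0.21 without calf 2 and steer 4) and GSDMD, whose change was 0.02 without calf 1 and 0.10 without steer 4 and lay between -0.72 and 0.10 with 1 library left out. The causes were not tested.

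With a replicate block the counts were 785 higher and 1046 lower over all genes, 1 of the 10 genes higher, and 7 higher and 5 lower in the related lists (1 NF-kB response gene higher and 1 alarmin lower). Deviations of same-numbered animals correlated at 0.26, 0.11, -0.13 and -0.33 over 13852 genes, and 1 of 8 animals was closest to the one of its own number, so the animals are not taken as pairs.

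Depth limits NLRP3, the receptors IL1RL1 and IL18R1 and several cytokines, which had too few counts to test.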
